A study of Homo sapiens with 12 samples.

Results

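Integrins are the receptors by which cells hold the matrix around them, and laminins are the main protein those receptors meet in a basement membrane. An integrin is a pair of 1 alpha and 1 beta chain, and the pairing decides which ligand it binds. A laminin is a cross-shaped trimer of an alpha, a beta and a gamma chain. In the gut, the epithelium rests on laminins through integrins that contain ITGB1 and through the ITGA6 and ITGB4 pair of hemidesmosomes, the rivets that tie the basement membrane to keratin filaments.

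The genes described here are the protein-coding rows of the deposited count table whose symbol reads as an integrin alpha or beta gene or as a laminin alpha, beta or gamma gene. This rule took 43 of 48162 rows, with 42 symbols, since ITGB3 has 2 rows and the shorter one had 0 counts in all 12 libraries. Of the 43, 39 were chain genes: 18 integrin alpha, 9 integrin beta, 5 laminin alpha, 4 laminin beta and 3 laminin gamma rows. The remaining 4 (ITGB1BP1, ITGB1BP2, ITGB3BP and ITGBL1) share the symbol but encode binding partners or related proteins. A filter on low counts kept 37 of the 43 rows for testing, and ITGA8, ITGAD, ITGAM, LAMB4, ITGB1BP2 and the empty ITGB3 row were not tested.

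All 12 libraries came from Caco-2, an established human colorectal cancer line that resembles absorptive enterocytes, kept as spheroids embedded in Matrigel. Matrigel is a gel of basement membrane proteins from a mouse tumour and is rich in laminin, so the cells touched this ligand whatever they made themselves. The cells were at passage 26, had formed spheroids over 5 days in DMEM with 20% serum, and were then exposed for 4 h. The exposures were methotrexate (an antifolate drug), lactoferrin (a protein of milk and mucosal fluids that binds iron), both agents together, or carrier fluid as the control, with 3 libraries each. Doses are not given in the labels and 1 line was used. No label ties the 3 libraries of a group to separate cultures, so a p-value here measures the spread between samples that may be technical replicates.

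The methotrexate libraries stood apart from the other 9. They held 47459811 to 60591667 counts, against 18714054 to 23859094 in the others, and mitochondrial genes took 6.67 to 7.54% of their counts, against 2 to 3.34%. Sums of marker genes of other cell types differed in both directions. The summed level of 20 fibroblast markers was 15900 to 17500 CPM, counts scaled to a fixed library total, with methotrexate, 1100 to 1220 with lactoferrin, 1080 to 1270 with both agents and 1100 to 1200 in control, where PRRX1, DPT and MFAP5 were at 0. The sum of 18 adipocyte markers was 22200 to 23300 CPM with methotrexate and 484 to 618 CPM in the other 9 libraries. The epithelial markers summed to 4700 to 5260 CPM with methotrexate and 10000 to 10600 CPM in control. Schwann cell and nerve markers summed to 237 to 288 CPM with methotrexate and 473 to 545 CPM in control, and skeletal muscle markers to 9.83 to 11.9 CPM with methotrexate and 14.1 to 16.2 CPM in control. The sums of endothelial markers overlapped, at 35.8 to 38.9 CPM with methotrexate and 27.2 to 36.6 CPM in control. Single markers went otherwise than these sums in the edgeR test used below. That test called 35.4% of all genes higher and 29.1% lower with methotrexate. Of 8 tested endothelial markers 6 were called higher and 1 lower with methotrexate (median log2 fold change 1.59). Schwann cell and nerve markers had 2 higher and 3 lower of 8, and skeletal muscle markers 2 higher and 1 lower of 5. The part of all these marker genes in the results below was not tested. In bulk RNA fewer cells of a type and less RNA per cell cannot be told apart. A comparison with the methotrexate group cannot be made without these libraries, while the others are also given without them.

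In control spheroids the laminin genes formed a steep order when counts were divided by gene length. LAMB3 led at 118 ± 4.8 CPM per kb (SD, n = 3 for every mean here), followed by LAMB1 at 75.1 ± 1.19, LAMA5 at 72.3 ± 15.9 and LAMC1 at 64.5 ± 2.37. The libraries of LAMB1, LAMA5 and LAMC1 overlapped between neighbours in this order. LAMB2 stood at 12 ± 0.709, LAMA1 at 8.26 ± 0.522 and LAMA3 at 1.16 ± 0.0706 CPM per kb. LAMC3, LAMA4, LAMB4 and LAMA2 lay between 0.138 and 0.00597 CPM per kb. LAMA5 encodes the main alpha chain under the adult gut epithelium, LAMB3 and LAMA3 are chains of the laminin of hemidesmosomes, and LAMB1 and LAMC1 are found in most tissues.

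The integrin genes of control spheroids were led by ITGB1, the beta chain shared by most matrix receptors, at 87.6 ± 4.55 CPM per kb. ITGB5, which pairs with ITGAV to bind vitronectin, followed at 32.1 ± 0.469. ITGB4 at 17.6 ± 1.69 and ITGA7 at 16.9 ± 2.06 overlapped. ITGA6 (12.4 ± 0.48) and ITGA3 (7.11 ± 0.44), the alpha chains of epithelial laminin receptors, stood on each side of ITGAV (10.1 ± 0.251). ITGA1 (3.79 ± 0.287) and ITGA2 (3.02 ± 0.168), which bind collagens, came next. ITGAE, ITGA5 and ITGA9 lay at 2.06 ± 0.319, 1.77 ± 0.0425 and 1.76 ± 0.153 CPM per kb and overlapped. The other 15 integrin rows were below 0.5 CPM per kb, among them the leukocyte chains ITGA4, ITGAL, ITGAM, ITGAX, ITGAD, ITGB2 and ITGB7 and the platelet chains ITGA2B and ITGB3.

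**Figure D1:**
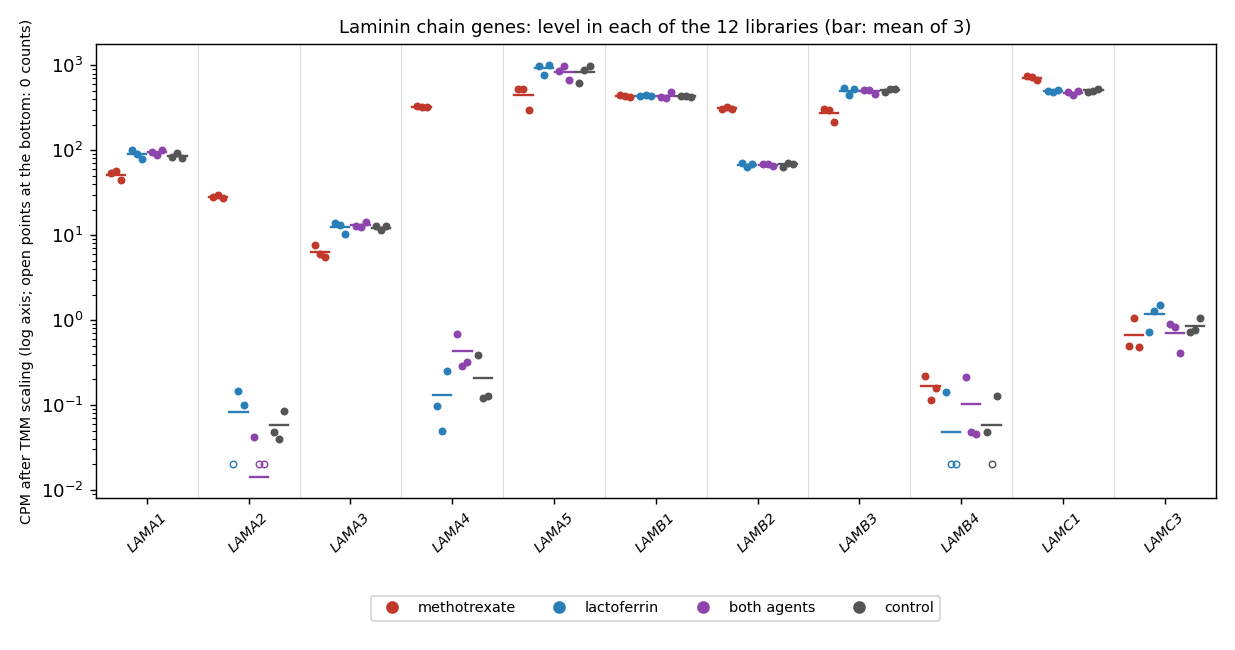
Level of 11 laminin genes in every library (vertical log axis, CPM after scaling; points are libraries, bars are means of 3, open points at the bottom are libraries with 0 counts). With methotrexate LAMA4 sat at 324 to 330 CPM, against 0.121 to 0.384 CPM in control, while the LAMB1 points of all 4 groups lay between 415 and 479 CPM.

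Methotrexate libraries differed from control in most of these genes, in both directions. Of the 37 tested, 21 were higher, 10 were lower and 6 were not called by edgeR's quasi-likelihood test (adjusted p under 0.05), which is 83.8% called. The same test called 64.5% of all 16733 genes, 35.4% higher and 29.1% lower. The median log2 fold change of the 37 genes was 0.78, against 0.03 for all genes. Of the 37, 7 passed the filter on low counts only with the methotrexate libraries in the table (ITGA4, ITGA10, ITGA11, ITGAX, ITGBL1, LAMA2 and LAMA4). All 7 were called higher, which the filter largely fixed in advance: of all 1590 genes that passed only so, 1405 were higher, 6 lower and 179 not called. The other 30 of the 37 had 14 higher, 10 lower and 6 not called (80%) and a median of 0.36. Over the 15143 genes that passed without the methotrexate libraries 61.9% were called, with a median of -0.07. In 23 of the 37 all 3 methotrexate libraries lay above all 3 control libraries and in 10 below, against 38.6% and 32.9% of all genes. By family, 10 integrin alpha genes were higher and 1 lower of 15, integrin beta genes 5 and 3 of 8, and laminin genes 4 and 5 of 11. The higher alpha genes include ITGA4, ITGA10, ITGA11 and ITGAX, and the higher laminin genes LAMA2 and LAMA4. These passed the filter only with the methotrexate libraries, so the family counts lean towards higher.

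The direction of the lower genes depends on the scaling. Here libraries were scaled by the trimmed mean of M-values (TMM), under which 54.9% of all calls with methotrexate were higher. Libraries were also scaled on epithelial markers, those of 30 listed that passed the filter and had counts in every library. The median log2 fold change of all genes was then 1.05 in place of 0.03, and 99.7% of all calls were higher. Of the 37 genes 28 were higher and 0 lower, against 79.4% and 0.209% of all 16733 genes. Of 29 tested epithelial markers 28 were lower with TMM (median log2 fold change -1.05), against 29.1% of all genes. Changes below are from TMM and are read against both medians.

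The laminin alpha genes showed the widest split. LAMA4 (ENSG00000112769, chromosome 6, 112429963 to 112576141 on hg19) encodes an alpha chain typical of the basement membranes around vessels, fat cells and muscle. It had 330, 327 and 324 CPM in the methotrexate libraries, 0.0962, 0.0491 and 0.254 CPM with lactoferrin, 0.68, 0.291 and 0.32 CPM with both agents, and 0.384, 0.121 and 0.127 CPM in control. The 3 methotrexate libraries were close to each other and far above the other 9, at a log2 fold change of 10.63 ± 0.25 (SE) over control (adjusted p = 5.53e-15). LAMA2, the alpha chain of skeletal muscle and nerve, had 28.3, 29.4 and 27.1 CPM with methotrexate, 0, 0.147 and 0.101 CPM with lactoferrin, 0.0425, 0 and 0 CPM with both agents, and 0.0479, 0.0402 and 0.0845 CPM in control. Its change was 8.83 ± 0.32 (adjusted p = 8.12e-13), on a base of 4 counts over the 3 control libraries.

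The other 3 laminin alpha genes were lower. LAMA5 (ENSG00000130702, chromosome 20, 60883011 to 60942368) had 525, 529 and 298 CPM with methotrexate, 982, 772 and 1010 CPM with lactoferrin, 862, 976 and 665 CPM with both agents, and 625, 877 and 976 CPM in control. It was the most variable of the abundant laminins, its replicates spread widely in every group, and yet the methotrexate and control libraries did not overlap (-0.87 ± 0.21, adjusted p = 0.00167). LAMA1, an alpha chain of embryonic basement membranes and of the laminin in Matrigel, had 53.3, 56.6 and 44.4 CPM with methotrexate, 101, 89.1 and 78.4 CPM with lactoferrin, 95.2, 88.1 and 100 CPM with both agents, and 83.3, 91.9 and 81.9 CPM in control (-0.74 ± 0.12). LAMA3, the alpha chain of hemidesmosome laminin, had 7.62, 5.99 and 5.58 CPM with methotrexate, 13.8, 13.3 and 10.3 CPM with lactoferrin, 12.8, 12.6 and 14.1 CPM with both agents, and 12.8, 11.5 and 12.8 CPM in control (-0.95 ± 0.15). All 3 falls were smaller than the epithelial median of -1.05. Under the epithelial scaling LAMA5 was at 0.14, LAMA3 at 0.07 and LAMA1 at 0.29 on the log2 scale, and LAMA1 was then called higher (adjusted p = 0.0255).

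Among the beta genes, LAMB2, which replaces LAMB1 in laminins of muscle, nerve and kidney, had 309, 320 and 303 CPM with methotrexate, 70.5, 62.8 and 68.7 CPM with lactoferrin, 68.2, 69.4 and 65.8 CPM with both agents, and 63.7, 71.5 and 69 CPM in control. The 9 libraries of the other groups were within a narrow band, and the methotrexate level was 4.56-fold that of control (log2 fold change 2.19 ± 0.09, adjusted p = 3.41e-12). LAMB1, the most widely expressed beta chain, had 443, 441 and 419 CPM with methotrexate, 437, 447 and 430 CPM with lactoferrin, 428, 415 and 479 CPM with both agents, and 440, 433 and 426 CPM in control. These overlapped, at 0.00 ± 0.08 (adjusted p = 0.962), but under the epithelial scaling LAMB1 was called higher by 1.03. LAMB3, the epithelial beta chain, had 309, 299 and 214 CPM with methotrexate, 536, 445 and 531 CPM with lactoferrin, 518, 510 and 455 CPM with both agents, and 486, 522 and 521 CPM in control. It fell by 0.90 on the log2 scale (SE 0.12, adjusted p = 1.17e-05), and stood at 0.12 under the epithelial scaling.

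LAMC1, the common gamma chain, had 754, 721 and 673 CPM with methotrexate, 496, 486 and 515 CPM with lactoferrin, 484, 451 and 496 CPM with both agents, and 491, 505 and 529 CPM in control. The methotrexate libraries lay above the other 9, and the rise of 0.49 ± 0.08 (adjusted p = 6.24e-05) was the smallest called among the 37 genes. LAMA3 and LAMB3, chains of the same trimer, changed by -0.95 and -0.90, and neither was called under the epithelial scaling, at 0.07 and 0.12. A fall of that size was not particular to them, as LAMA5 stood at -0.87, ITGB8 at -0.90 and ITGB6 at -0.99 with TMM. LAMC3 was scarce, at 0.476 to 1.05 CPM with methotrexate and 0.719 to 1.06 CPM in control, and was not called.

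Promoter letters were compared with those of all genes. The RefSeq promoter table (GRCh38.p14) held 30 of the 42 symbols, with 38 start sites. The letters TGANTCA, the core bound by AP-1 factors and its own reverse complement apart from the middle base, were searched on both strands in the 250 bases before each start. They were found in 2 of the 38 windows (5.26%), those of LAMA3 and LAMB3, against 2308 of 35116 windows over all genes (6.57%), so the share was no higher than that background. The GC box GGGCGG was in 19 of the 38 windows (50%) and in 42.6% of all. LAMB3 has 3 listed starts, and the motif was before the one shown. The stretches are printed because these were the 2 genes with a match, with the motif in capitals: for LAMB3 at chr1:209651395-209651624 on the minus strand, 67 bases before the start, and for LAMA3 at chr18:23872884-23872912 and chr18:23872940-23872968 on the plus strand, 125 and 69 bases before the start.
LAMB3 window: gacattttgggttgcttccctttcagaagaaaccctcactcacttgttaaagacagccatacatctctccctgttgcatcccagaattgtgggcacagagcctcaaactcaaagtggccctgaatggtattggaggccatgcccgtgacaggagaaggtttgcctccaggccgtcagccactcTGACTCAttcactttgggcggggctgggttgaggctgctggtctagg
LAMA3 distal match: ctggcacaggcTGACTCAtgtgtgaagtt
LAMA3 proximal match: ccttcctcaccTGAGTCAggcaggcccgg
A match of letters is a description of these windows, and binding was not measured.

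The make-up of the laminin alpha and beta chains within a library does not depend on the scaling. Taken as shares of summed CPM per kb, LAMA4 made up 51.6 ± 6.8% of laminin alpha transcripts with methotrexate, 0.0216 ± 0.0161% with lactoferrin, 0.0793 ± 0.0378% with both agents and 0.0444 ± 0.0408% in control. LAMA5 made up 39.7 ± 7.18% with methotrexate and 88.1 ± 2.46% in control. Among beta transcripts LAMB3 took 32.6 ± 3.82% with methotrexate and 57.6 ± 1.13% in control, LAMB2 took 28.4 ± 1.84% with methotrexate and 5.84 ± 0.221% in control, and LAMB1 took 39 ± 2.03% with methotrexate and 36.6 ± 1.32% in control. An exact test of 3 libraries against 3 cannot go below p = 0.10, so these shares are given as values. Methotrexate libraries did not overlap the other 9 for LAMA4, LAMA5, LAMB2 or LAMB3, while for these 4 genes the shares with lactoferrin and with both agents each overlapped those of control.

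**Figure D2:**
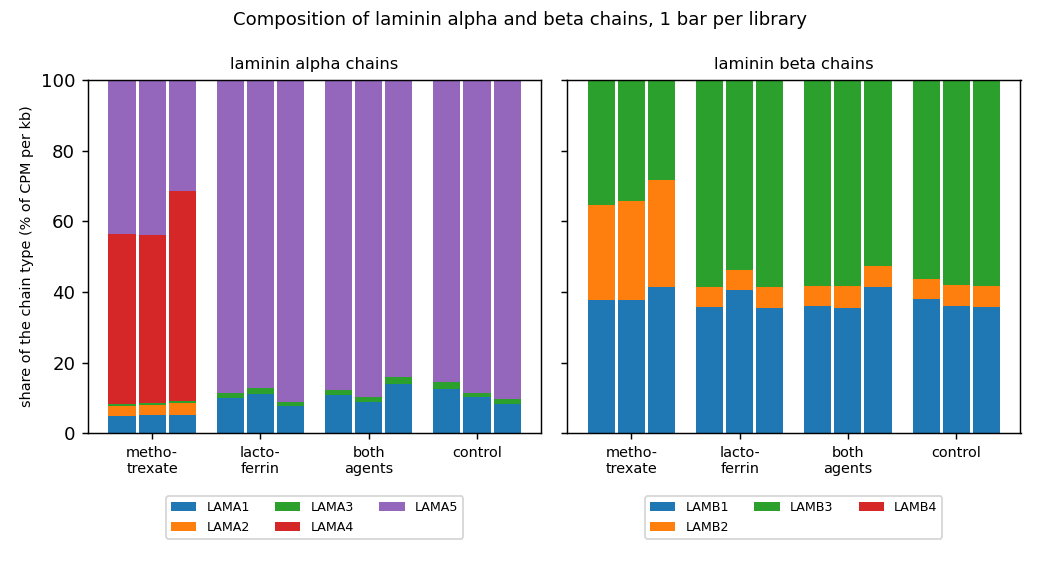
Share of each gene in the summed CPM per kb of its laminin chain type, 1 bar per library (vertical axis, percent). LAMA4 took 47.4 to 59.4% of the alpha chain bar in the methotrexate libraries and at most 0.121% elsewhere, and LAMB2 took 26.8 to 30.4% of the beta chain bar, against 5.6 to 6.04% in the other 9 libraries.

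Chains of fibronectin and collagen receptors differed widely in how far they changed with methotrexate. ITGA5 (ENSG00000161638, chromosome 12, 54789045 to 54813244), the alpha chain of the fibronectin receptor, had 168, 155 and 148 CPM with methotrexate, 7.21, 9.97 and 7.36 CPM with lactoferrin, 9.47, 8.78 and 8.99 CPM with both agents, and 8.72, 9.08 and 8.71 CPM in control. No other library came near the methotrexate level, at a log2 fold change of 4.15 ± 0.13 (adjusted p = 1e-13). ITGA11, a collagen receptor chain of fibroblasts, had 67.9, 56.6 and 54.2 CPM with methotrexate, 0.0962, 0.0983 and 0.304 CPM with lactoferrin, 0.127, 0.243 and 0.183 CPM with both agents, and 0.288, 0.322 and 0.169 CPM in control (7.82 ± 0.23, adjusted p = 6.81e-14). ITGA10, a collagen receptor chain of cartilage, had 0.715, 1.14 and 1.23 CPM with methotrexate, 0.192, 0 and 0.254 CPM with lactoferrin, 0, 0.291 and 0.0913 CPM with both agents, and 0.144, 0.121 and 0.169 CPM in control (2.81 ± 0.63, adjusted p = 0.000997). ITGA1 and ITGA2, the collagen receptor chains that epithelial cells also use, were not called. ITGA1 had 38.1, 33 and 35.4 CPM with methotrexate, 28.9, 30.7 and 27 CPM with lactoferrin, 31.7, 29.3 and 36.2 CPM with both agents, and 33.1, 28.7 and 29.8 CPM in control (0.22 ± 0.11, adjusted p = 0.0919). ITGA2 had 25.7, 26.2 and 32.1 CPM with methotrexate, 22.6, 24.6 and 21.3 CPM with lactoferrin, 22, 20.4 and 31.3 CPM with both agents, and 25.3, 23.3 and 22.8 CPM in control (0.23 ± 0.15, adjusted p = 0.174). Both were called higher under the epithelial scaling, at 1.25 and 1.27.

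Laminin receptor chains moved in both directions. ITGA7, the laminin receptor chain best known from muscle, had 425, 426 and 386 CPM with methotrexate, 66, 61.5 and 77.8 CPM with lactoferrin, 71.4, 79.3 and 59.9 CPM with both agents, and 68.6, 67.6 and 83.6 CPM in control. It was the second integrin gene per length with methotrexate, at 94.9 ± 5.2 CPM per kb, and rose 5.63-fold (2.49 ± 0.13, adjusted p = 6.52e-11). ITGA3 had 98.6, 97.8 and 95.3 CPM with methotrexate, 42.9, 37 and 43.8 CPM with lactoferrin, 45.5, 44.3 and 39 CPM with both agents, and 36.6, 41.4 and 39 CPM in control (1.32 ± 0.10, adjusted p = 1.02e-08). ITGA6 had 127, 117 and 110 CPM with methotrexate, 71.4, 75.6 and 70.5 CPM with lactoferrin, 78.7, 67.4 and 94.5 CPM with both agents, and 76.9, 71.4 and 72.9 CPM in control (0.68 ± 0.11, adjusted p = 6.94e-05). The methotrexate libraries of ITGA7, ITGA3 and ITGA6 lay above all others. ITGB4, which pairs with ITGA6 alone, had 58.4, 53.9 and 43.7 CPM with methotrexate, 118, 84.7 and 105 CPM with lactoferrin, 111, 112 and 87.9 CPM with both agents, and 92.5, 108 and 111 CPM in control. The methotrexate libraries lay below all others. It fell by 1.00 on the log2 scale (SE 0.14, adjusted p = 1.5e-05), the lowest value among the 37 genes, and stood at 0.02 under the epithelial scaling, where ITGA6 stood at 1.70. The 2 chains of the hemidesmosome receptor thus moved by unequal amounts under either scaling.

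ITGB1 (ENSG00000150093, chromosome 10, 33189247 to 33294720) had 853, 814 and 838 CPM with methotrexate, 308, 397 and 310 CPM with lactoferrin, 348, 312 and 458 CPM with both agents, and 350, 317 and 328 CPM in control. The methotrexate libraries were above all others, at 1.33 ± 0.13 over control (adjusted p = 2.47e-07). Its pseudogene ITGB1P1 is a separate row, and how reads common to the pair were assigned is not known here. ITGAV, the shared alpha chain of the vitronectin and latent TGF-beta receptors, had 213, 181 and 191 CPM with methotrexate, 71.6, 84.5 and 78 CPM with lactoferrin, 74.9, 72.5 and 93 CPM with both agents, and 71.5, 72.3 and 68.9 CPM in control (1.46 ± 0.11, adjusted p = 9.13e-09). The beta partners of ITGAV divided. ITGB5 had 269, 239 and 217 CPM with methotrexate, 137, 117 and 161 CPM with lactoferrin, 144, 139 and 121 CPM with both agents, and 139, 140 and 143 CPM in control (0.78 ± 0.12, adjusted p = 2.75e-05). ITGB3, which binds vitronectin and fibrinogen, had 3.13, 1.9 and 2.02 CPM with methotrexate, 1.01, 0.295 and 0.406 CPM with lactoferrin, 0.34, 0.485 and 0.548 CPM with both agents, and 0.767, 0.884 and 0.38 CPM in control (1.78 ± 0.39). In both genes every methotrexate library lay above the other 9. The epithelial partners that activate latent TGF-beta were lower with TMM: ITGB6 had 1.11, 1.11 and 0.933 CPM with methotrexate, 1.49, 2.26 and 2.28 CPM with lactoferrin, 1.91, 1.8 and 2.97 CPM with both agents, and 2.01, 2.21 and 2.03 CPM in control (-0.99 ± 0.25, adjusted p = 0.00297). ITGB8 had 1.55, 1.32 and 1.29 CPM with methotrexate, 1.73, 2.6 and 2.44 CPM with lactoferrin, 2.29, 2.57 and 3.1 CPM with both agents, and 3.31, 2.45 and 2.03 CPM in control (-0.90 ± 0.24, adjusted p = 0.0039). They stood at 0.03 and 0.12 under the epithelial scaling and were then not called.

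**Figure D3:**
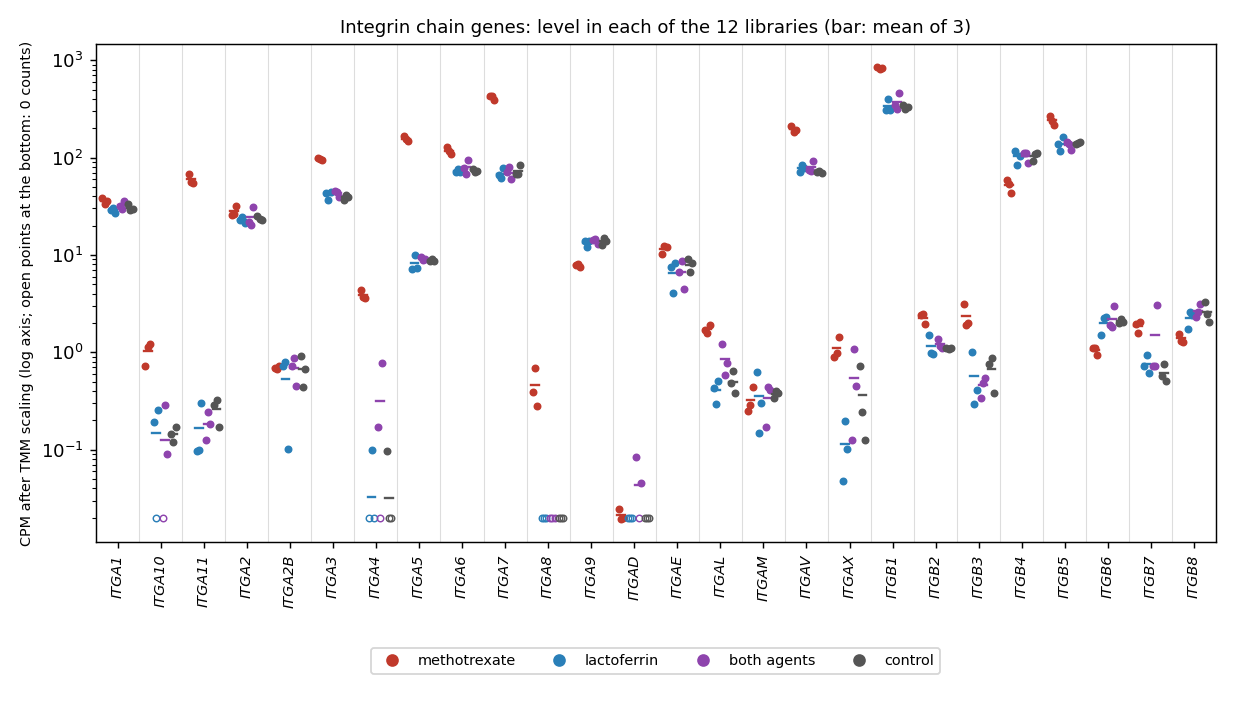
Level of 26 integrin genes in every library (vertical log axis, CPM after scaling; points are libraries, bars are means of 3, open points at the bottom are libraries with 0 counts; the ITGB3 row at 0 throughout is left out). ITGA5, ITGA7 and ITGA11 had methotrexate points far above the rest, at 148 to 168, 386 to 426 and 54.2 to 67.9 CPM, and ITGB4 methotrexate points lay below, at 43.7 to 58.4 CPM.

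Integrins of white blood cells were scarce throughout. ITGA4, which binds VCAM1 and fibronectin with ITGB1 or ITGB7, had 4.39, 3.7 and 3.63 CPM with methotrexate, 0, 0.0983 and 0 CPM with lactoferrin, 0.17, 0 and 0.776 CPM with both agents, and 0.0959, 0 and 0 CPM in control. Its summed counts were 552 with methotrexate and 2 in control, a ratio of 134 (95% counting interval 37 to 1110), with a fitted log2 fold change of 6.87 ± 0.83 (adjusted p = 2.48e-06). ITGAL was at 1.7, 1.57 and 1.93 CPM with methotrexate, 0.433, 0.295 and 0.507 CPM with lactoferrin, 1.23, 0.582 and 0.776 CPM with both agents, and 0.479, 0.643 and 0.38 CPM in control (1.78 ± 0.33, adjusted p = 0.000208). ITGB2, its partner, was at 2.39, 2.46 and 1.97 CPM with methotrexate, 1.49, 0.983 and 0.964 CPM with lactoferrin, 1.36, 1.16 and 1.1 CPM with both agents, and 1.1, 1.09 and 1.1 CPM in control (1.05 ± 0.24, adjusted p = 0.00121). For ITGA4, ITGAL and ITGB2 the methotrexate libraries lay above the other 9, while for ITGB7 and ITGAX 1 library with both agents reached them. ITGB7 was at 1.97, 1.57 and 2.04 CPM with methotrexate, 0.721, 0.934 and 0.609 CPM with lactoferrin, 0.722, 0.728 and 3.06 CPM with both agents, and 0.575, 0.764 and 0.507 CPM in control (1.58 ± 0.46, adjusted p = 0.00697). ITGAX was at 0.888, 0.989 and 1.45 CPM with methotrexate, 0.0481, 0.197 and 0.101 CPM with lactoferrin, 0.127, 1.07 and 0.456 CPM with both agents, and 0.719, 0.241 and 0.127 CPM in control (1.65 ± 0.58, adjusted p = 0.0211), and lost its call without control replicate 2 (1.42, adjusted p = 0.0886), control replicate 3 (1.24, 0.103) or methotrexate replicate 3 (1.41, 0.0724). In all 5 genes the methotrexate libraries lay above control. The 23 leukocyte markers summed to 297 to 304 CPM with methotrexate and 154 to 166 CPM in control, with CD2 and CD68 at 0 in all 12 libraries. Of 11 tested, 5 were higher and 5 lower, against 35.4% and 29.1% of all genes. The part of these markers in the rises was not tested.

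The untested leukocyte chains stayed near the floor: ITGAM had 0.247 to 0.437 CPM with methotrexate and 0.336 to 0.402 CPM in control, and ITGAD had at most 2 counts in any library. ITGAE, which binds E-cadherin, had 10.2, 12.3 and 12.1 CPM with methotrexate, 7.5, 4.08 and 8.17 CPM with lactoferrin, 6.75, 8.69 and 4.47 CPM with both agents, and 9.06, 6.63 and 8.2 CPM in control. Its libraries did not overlap, but it missed the threshold (0.54 ± 0.24, adjusted p = 0.0554). It passed with other settings, such as DESeq2 (adjusted p = 0.0363) and limma-voom (0.0352). ITGA9, a receptor chain for tenascin, was the only integrin alpha gene called lower of the 15 tested, at 7.96, 8.13 and 7.6 CPM with methotrexate, 14, 12.2 and 13.8 CPM with lactoferrin, 14.4, 14.7 and 13.1 CPM with both agents, and 12.7, 15.1 and 13.9 CPM in control (-0.81 ± 0.12, adjusted p = 2.07e-05; 0.21 under the epithelial scaling). ITGA2B, the platelet alpha chain, had 0.679 to 0.715 CPM with methotrexate and 0.442 to 0.911 CPM in control and was not called. ITGA8, a receptor chain for nephronectin, had 16, 36 and 14 counts in the methotrexate libraries and 0 in the other 9, at least 10.7-fold higher than control against a floor of 3 counts over the group. LAMB4, at 6 to 9 counts a library with methotrexate and 0 to 3 in control, was not tested.

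The genes that share only the symbol were no exception. ITGBL1, a secreted protein with repeats like those of integrin beta chains, had 55, 48.9 and 48.6 CPM with methotrexate and 1 count over the 3 control libraries, a ratio of 3500 (95% counting interval 629 to 138000), and 0 counts in the 6 libraries with lactoferrin. ITGB1BP1, which binds the inner tail of ITGB1 and holds the receptor inactive, had 89.9, 96.4 and 95.4 CPM with methotrexate, 35.3, 38.4 and 40.7 CPM with lactoferrin, 36, 38.1 and 34.9 CPM with both agents, and 41.8, 37.5 and 36.7 CPM in control (1.28 ± 0.10, adjusted p = 7.93e-09). ITGB3BP, a centromere protein, had 5.5, 4.69 and 5.52 CPM with methotrexate, 5.53, 6.93 and 5.68 CPM with lactoferrin, 7.31, 9.32 and 9.04 CPM with both agents, and 8.44, 7.07 and 7.14 CPM in control (-0.53 ± 0.15, adjusted p = 0.00716). It was called higher, by 0.50, under the epithelial scaling. ITGB1BP2 had 10 to 15 counts a library with methotrexate and 6 to 8 in control and was not tested.

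**Figure D4:**
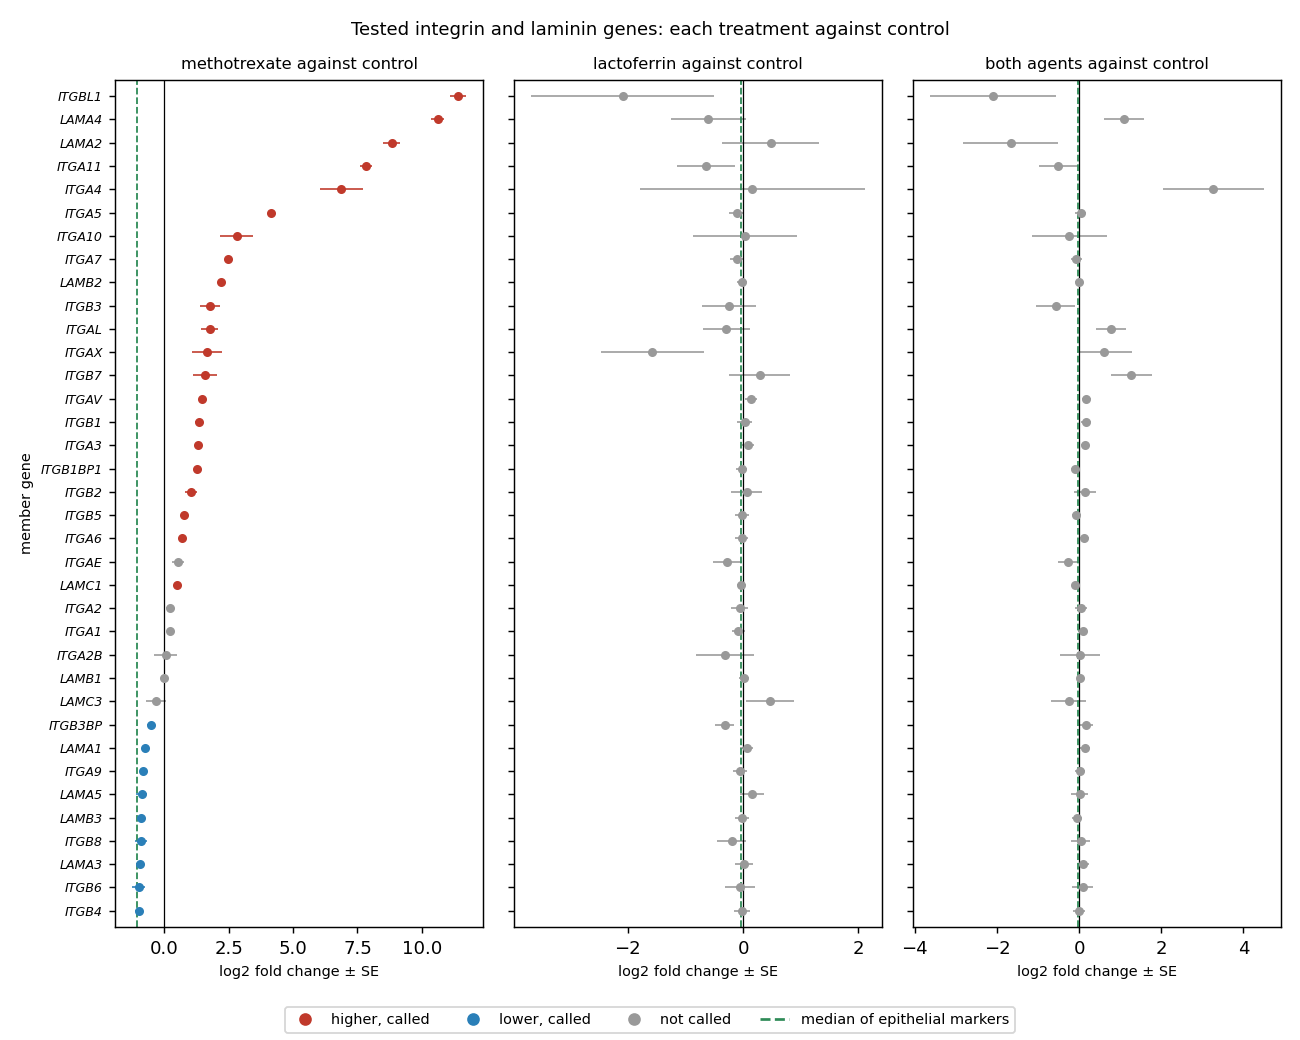
Log2 fold change (points) and standard error (bars) of 36 tested genes against control for methotrexate, lactoferrin and both agents, each on its own horizontal scale. The dashed line is the median of the epithelial markers, -1.05 with methotrexate; the genes called lower lie between it and 0, and no gene is coloured as called with lactoferrin or both agents.

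Partners of these genes were counted in the same comparison, in which 35.4% of all genes were higher and 29.1% lower, with a median log2 fold change of 0.03. Of 27 tested basement membrane genes 14 were higher and 11 lower with methotrexate (median log2 fold change 0.95). The collagen IV genes COL4A1 (3070 ± 208 CPM with methotrexate and 3.62 ± 0.356 CPM in control, 9.73 ± 0.15) and COL4A2 (8.94 ± 0.18), and SPARC, a collagen-binding matrix protein (10.56 ± 0.22), had the lowest p-values. Of 33 other integrin ligands 24 were higher and 5 lower (median 4.50), led by the collagen genes COL3A1 (11.32 ± 0.17), COL5A1 (6.15 ± 0.11) and COL6A2 (7.54 ± 0.14). Among 21 other matrix receptors 12 were higher and 8 lower (median 2.06), and MCAM (7.50 ± 0.17), a laminin receptor that binds LAMA4, had the lowest p, followed by the hyaluronan receptor CD44 (4.64 ± 0.13) and the collagen receptor ANTXR1 (9.13 ± 0.26). Of the other integrin ligands, COL1A1, COL1A2, COL3A1, COL6A1, COL6A2, COL6A3 and POSTN are also in the fibroblast marker list. MCAM is in that of smooth muscle and pericytes, whose sum was 984 to 1120 CPM with methotrexate and 201 to 267 CPM in control. How many genes of these and the next lists passed the filter only with the methotrexate libraries was not counted. Of all 1590 genes that did so 1405 were higher, so the list counts and medians may lean towards higher.

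Of 40 adhesion plaque genes, which link integrins to actin, 23 were higher and 7 lower (median 0.63). The background for this and the next lists is again 35.4% of all genes higher and 29.1% lower. PARVA (156 ± 4.98 CPM with methotrexate and 25.2 ± 0.711 CPM in control, 2.63 ± 0.09) and FERMT2 (3.33 ± 0.14), which activates integrins, were among those of lowest p. Of 16 hemidesmosome and tetraspanin genes 8 were higher and 6 lower (median 0.35), with TSPAN8, an epithelial tetraspanin, at 113 ± 8.48 CPM with methotrexate and 257 ± 32.7 CPM in control (-1.19 ± 0.10), CD82 at 2.15 ± 0.19 and PTGFRN at 1.10 ± 0.10. Of 9 genes of the latent TGF-beta complex, which ITGAV receptors open, 5 were higher and 3 lower (median 0.64), among them LTBP2 (4.60 ± 0.18), LRRC32 (5.75 ± 0.38) and TGFB1 itself (1.05 ± 0.12). The count of 3 lower fell to 1 without control replicate 2 or 3 and to 0 without methotrexate replicate 3. Of 26 matrix proteases and their inhibitors 21 were higher and 3 lower (median 1.98), with MMP2 at 403 ± 17.9 CPM with methotrexate and 0.321 ± 0.0727 CPM in control (10.29 ± 0.18) and its inhibitor TIMP2 at 3.68 ± 0.10. Under the epithelial scaling at most 1 gene of any of these 7 lists was lower, against 0.209% of all genes. TSPAN8, KRT8 and KRT18 of the hemidesmosome and tetraspanin list are also in the epithelial marker list used for that scaling.

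**Figure D5:**
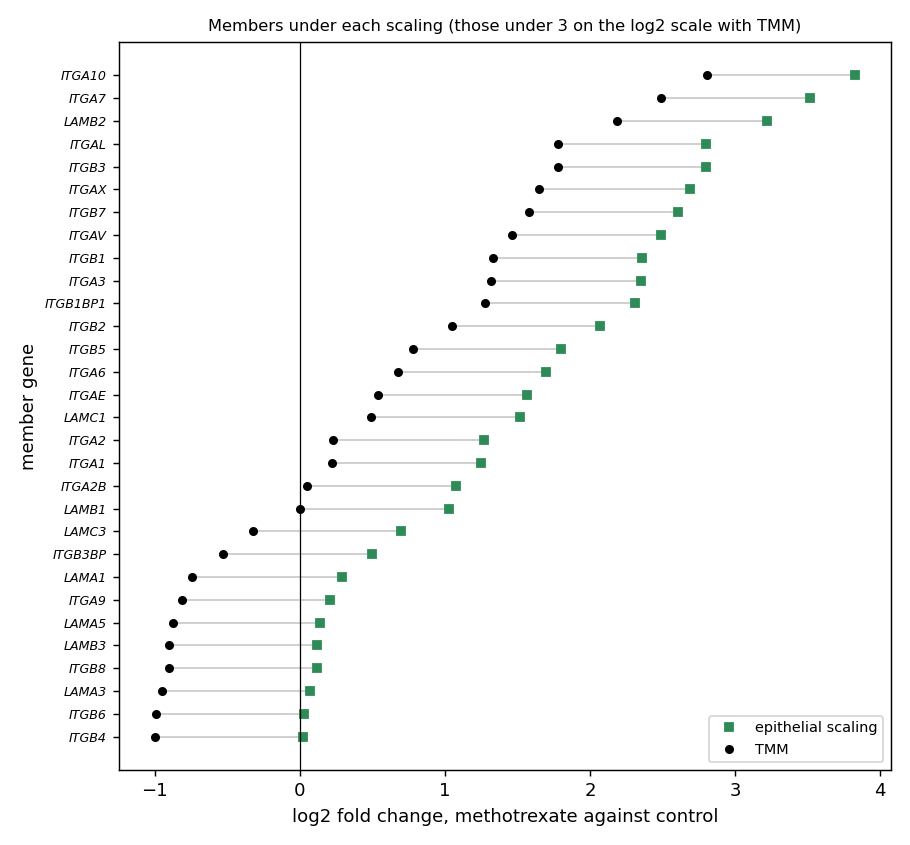
Log2 fold change of methotrexate against control under the epithelial scaling (squares) and under TMM (circles) for 30 genes below 3 with TMM. Each gene moves up by about the same step; the genes shown that were called lower with TMM lie at 0.02 to 0.50 under the epithelial scaling.

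With lactoferrin alone, no integrin or laminin gene passed the test against control. Of the 37 tested, edgeR called 0 (background 0% of 16733), and 0 had an unadjusted p under 0.05; DESeq2 and limma-voom also called 0 of the 37. Over all genes edgeR called 0, with 628 at an unadjusted p under 0.05, DESeq2 called 1 and limma-voom 0. Single libraries of abundant chains lay outside the control range, such as ITGB5 at 117 and 161 CPM with lactoferrin against 139 to 143 CPM in control. Of the fitted differences on the log2 scale, ITGB1 differed by 0.03 ± 0.13, LAMB1 by 0.02 ± 0.08, LAMC1 by -0.03 ± 0.08, LAMB3 by -0.02 ± 0.12, ITGA6 by -0.02 ± 0.11 and ITGB4 by -0.02 ± 0.14. LAMA5, at 0.16 ± 0.21, was less well measured. ITGB3BP was the 1 gene whose 3 lactoferrin libraries (5.53, 6.93 and 5.68 CPM) all lay below the control libraries, at -0.32 ± 0.16 (adjusted p = 1), and 4.91% of all genes lay below in this way. Scarce genes such as ITGAX (-1.57 ± 0.89) and ITGA4 (0.16 ± 1.95) had errors too wide for a change of that size to be detectable at this depth.

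With both agents, 0 of the 37 were called against control by edgeR (background 0.0299%, 5 of 16733 genes, all higher). An unadjusted p under 0.05 was found for 4 of the 37 and 591 of all genes, and each of the 4 had an adjusted p of 1. DESeq2 and limma-voom called 0 of the 37 as well. ITGA4 had 4, 0 and 17 counts with both agents and 2, 0 and 0 in control, a ratio of 11 (95% counting interval 2.7 to 97). Replicate 3 held most of those counts, and ITGA4 was called when no filter on low counts was used (3.27, adjusted p = 0.0399). ITGB7 had 0.722, 0.728 and 3.06 CPM against 0.575, 0.764 and 0.507 CPM (1.28 ± 0.49), again with replicate 3 high. LAMA4 had 0.68, 0.291 and 0.32 against 0.384, 0.121 and 0.127 CPM (1.10 ± 0.48) and overlapped. ITGAL had 1.23, 0.582 and 0.776 against 0.479, 0.643 and 0.38 CPM (0.79 ± 0.37), overlapping too, and stood at 0.78 in a fit without the methotrexate libraries (adjusted p = 0.999).

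The abundant chains with both agents gave small fitted differences from control on the log2 scale, and their difference from those with lactoferrin was not called. ITGB1 differed by 0.17 ± 0.13, LAMB1 by 0.03 ± 0.08, LAMC1 by -0.09 ± 0.08, LAMB2 by -0.01 ± 0.09, LAMB3 by -0.04 ± 0.12, ITGA5 by 0.04 ± 0.13 and ITGA7 by -0.06 ± 0.12. ITGAV was above control in 3 of 3 libraries (0.18 ± 0.11) and was the 1 gene of the 37 to be so, and 1 of the 37 lay below in 3 of 3, against 4.19% and 3.65% of all genes. Of the matrix and adhesion lists 1 gene was called: FBN2, a fibrillin of elastic microfibrils, at 0.472 ± 0.109 CPM with both agents and 0.0301 ± 0.0262 CPM in control (3.83 ± 0.59, adjusted p = 0.0281). VIM, an intermediate filament of mesenchymal cells in the fibroblast marker list, was called at 2.06 ± 0.238 against 0.637 ± 0.085 CPM (1.69 ± 0.20, adjusted p = 0.00339). The 5 calls over all genes became 3 without both-agents replicate 1 or control replicate 1, 8 without both-agents replicate 3 and 0 without control replicate 2. In the fit without the methotrexate libraries edgeR called 0 genes in this comparison, with 382 at an unadjusted p under 0.05. Its filter passed 30 of the integrin and laminin rows, ITGA4 and LAMA4 not among them, and 1 of the 30 had an unadjusted p under 0.05.

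Methotrexate added to lactoferrin was compared with lactoferrin alone. EdgeR called 0 of the 37 (background 0.0179%, 3 of 16733 genes), with 5 of the 37 and 564 of all genes at an unadjusted p under 0.05, and 0 of the 37 called by DESeq2 or limma-voom. LAMA4 had 0.68, 0.291 and 0.32 CPM with both agents, all above 0.0962, 0.0491 and 0.254 CPM with lactoferrin (1.70 ± 0.55). ITGB3BP had 7.31, 9.32 and 9.04 CPM, all above 5.53, 6.93 and 5.68 CPM (0.50 ± 0.16), and ITGAL had 1.23, 0.582 and 0.776, all above 0.433, 0.295 and 0.507 CPM (1.07 ± 0.39). ITGAX (2.18 ± 0.84) and ITGA4 (3.11 ± 1.25) overlapped. Every adjusted p was 1, and 3.67% of all genes lay above and 3.22% below in 3 of 3 libraries, against 3 and 0 of the 37. The 3 calls over all genes became 5 without both-agents replicate 3, 2 without lactoferrin replicate 2 and 0 without lactoferrin replicate 3. In the fit without the methotrexate libraries ITGB3BP stood at 0.50 and ITGAL at 1.07, both with an adjusted p of 1. That fit had 2 of 30 integrin and laminin rows and 395 of all 15143 genes at an unadjusted p under 0.05.

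Libraries with both agents differed from those with methotrexate alone in 30 of the 37 genes, 10 higher and 20 lower (81.1%, against 63.2% of all genes, 28.8% higher and 34.4% lower). Libraries of the groups did not overlap in the same numbers, 10 above and 20 below, against 30.2% and 36.3% of all genes. The 37 include the 7 genes that passed the filter only with the methotrexate libraries, and the share called is not given without them. This comparison shares the methotrexate libraries with the one against control, so its values are no separate evidence about them. LAMA4 stood at -9.53 ± 0.23 (adjusted p = 7.51e-15), ITGA11 at -8.32 ± 0.25, ITGA5 at -4.11 ± 0.13, ITGA7 at -2.55 ± 0.13, LAMB2 at -2.20 ± 0.09 and ITGB1 at -1.16 ± 0.13. LAMA3 stood at 1.04 ± 0.15, ITGB6 at 1.08 ± 0.25, ITGB4 at 1.00 ± 0.14, LAMA5 at 0.89 ± 0.21 and LAMB3 at 0.85 ± 0.12. ITGAE was called (-0.80 ± 0.24, adjusted p = 0.00822), with 6.75, 8.69 and 4.47 CPM with both agents against 10.2, 12.3 and 12.1 CPM with methotrexate. ITGB7 and ITGAX were not called here (-0.31 ± 0.42 and -1.04 ± 0.55), and the call of ITGAL (-0.99 ± 0.31, adjusted p = 0.0106) was lost without both-agents replicate 2 (-0.78, adjusted p = 0.0538). Under the epithelial scaling 28 of the 37 were lower and 0 higher, against 13089 lower and 54 higher of all 16733 genes.

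The interaction asks whether the effect of methotrexate differed in the presence of lactoferrin. It was called for 25 of the 37 genes, 9 higher and 16 lower, using the same 12 libraries. That is 67.6%, against 46.7% of all genes, 20.6% higher and 26.1% lower. The 37 again include the 7 genes that passed the filter only with the methotrexate libraries, and the share is not given without them. Under the epithelial scaling 23 of the 37 were lower and 0 higher, against 11796 lower and 25 higher of all 16733 genes. ITGA5 had a methotrexate effect of 4.15 without lactoferrin and 0.15 ± 0.13 with it, and the difference was -4.00 ± 0.18 (adjusted p = 5.34e-11). LAMB2 gave 2.19 and 0.01 ± 0.09 (-2.18 ± 0.12, adjusted p = 9.36e-10), ITGA7 2.49 and 0.04 ± 0.12 (-2.46 ± 0.18) and LAMB3 -0.90 and -0.03 ± 0.12 (0.87 ± 0.18). LAMA5 missed the threshold in this test (0.73 ± 0.29, adjusted p = 0.0513). In each of these genes the 6 libraries with lactoferrin were near control, and the fibroblast and adipocyte marker sums given above were likewise near control in those 6 and high in the 3 methotrexate libraries. Their part in the interaction was not tested.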

How the data were processed

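RNA was sequenced from 12 Caco-2 spheroid samples in 4 groups of 3. The deposited table holds counts per gene as the authors made them, not normalised. Per the submitters' processing notes the tools were CASAVA, STAR and DESeq2 and the build was hg19. Antisense or overlapping genes may share counts, with the counting program, annotation, strand setting and unit (reads or pairs) each not given in the sources used here. Per the labels' series text the submitters called genes changed over 2-fold at an adjusted p under 0.01.

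Here genes were filtered with filterByExpr (16733 of 48162 kept), scaled by TMM, and tested with edgeR's quasi-likelihood test over all 12 libraries with a mean per group and no covariate (R 4.3.3, edgeR 4.0.16, limma 3.58.1, DESeq2 1.42.0). P-values were adjusted over all tested genes by Benjamini-Hochberg, with calls at 0.05. The biological coefficient of variation was 12.9%, on 8 residual degrees of freedom. Every adjusted p given is from edgeR unless another tool is named. The standard error is the log2 fold change divided by the square root of its F value. Levels per length divide CPM by the gene length in the table. Ratios of low counts have exact 95% intervals, which, like the floor of 3 counts (0.0582 to 0.074 CPM a methotrexate library, 0.121 to 0.152 CPM in the others), cover counting error only. The fit was tested on simulated data in which a small set of genes changed, in both directions. With methotrexate 64.5% of all genes were called, so that simulation is no check on those comparisons.

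All rows matching the symbol rule entered the counts, and single values of some genes are not reported here. Otherwise values in every library were given for those called in any comparison or among the 12 highest per length in control. From each other list up to 3 genes of lowest p were named. Members and lists were chosen with earlier results of these data known. Alternatives were another scaling (relative log expression, epithelial markers), DESeq2, limma-voom, no filter, a replicate block, the compared groups alone, no methotrexate libraries, methotrexate libraries thinned to the depth of the others, the submitters' threshold, and each library left out. Replicates of a group differed by more than sampling noise (chi-square per degree of freedom 7.43 to 40.2). Promoter letters are from RefSeq (GRCh38.p14), and coordinates of genes are those of the table (hg19).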

Additional observations from a re-analysis of the deposited data

Results flagged for a closer look

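In 25 of the 37 tested genes the effect of methotrexate differed between spheroids with and without lactoferrin, by edgeR's interaction test over all 12 libraries, against 46.7% of all genes. Among the genes called, LAMA2, LAMA4, ITGA10 and ITGA11 passed the filter only with the methotrexate libraries. Of the 37, 9 were called higher and 16 lower, against 20.6% and 26.1% of all genes. Under the epithelial scaling 0 of the 37 were higher, and 25 of all 16733 genes. Fibroblast marker sums were 15900 to 17500 CPM in the methotrexate libraries and 1080 to 1270 CPM in the other 9, and their part was not tested. Values are the log2 effect with lactoferrin minus that without it, and they share the libraries of the comparisons above. Among laminin genes LAMA2 differed by -10.98 (adjusted p = 1.06e-05), LAMA4 by -8.92 (5.51e-06), LAMB2 by -2.18 (9.36e-10) and LAMC1 by -0.56 (0.000931). The value of LAMA2 rests on 10 counts over the 9 libraries outside the methotrexate group and depends on the prior count. LAMA1 differed by 0.81 (adjusted p = 0.000766), LAMB3 by 0.87 (0.000835) and LAMA3 by 1.03 (0.000981).

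Among integrin alpha genes ITGA11 differed by -7.68 (adjusted p = 1.28e-06), ITGA5 by -4.00 (5.34e-11), ITGA10 by -3.08 (0.0424), ITGA7 by -2.46 (1.58e-08), ITGAV by -1.42 (2.06e-06), ITGA3 by -1.26 (2.98e-06), ITGA6 by -0.53 (0.0128) and ITGA9 by 0.89 (0.000534). Among beta genes ITGB3 differed by -2.11 (adjusted p = 0.013), ITGB1 by -1.19 (7.77e-05), ITGB2 by -0.98 (0.0359), ITGB5 by -0.82 (0.000857), ITGB4 by 1.01 (0.000688), ITGB8 by 1.14 (0.0136) and ITGB6 by 1.14 (0.0176). ITGB1BP1 differed by -1.35 (adjusted p = 8.33e-07) and ITGB3BP by 1.03 (0.00142). ITGBL1, with 0 counts in all 6 libraries with lactoferrin, gave no usable estimate.

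Several of these calls rest on single libraries. ITGA10 ranged from -4.46 to -2.46 (adjusted p 0.0121 to 0.19) and ITGB2 from -1.08 to -0.73 (adjusted p 0.0314 to 0.127) as each library was left out. ITGB3 lost its call without lactoferrin replicate 1 (-1.4, adjusted p = 0.0968) and ITGB6 without both-agents replicate 3 (0.88, adjusted p = 0.0525).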

How the results depend on the processing

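Every comparison with the methotrexate group depends on the scaling. On epithelial markers the 10 lower genes became 0, and 0.209% of all genes were lower. Values that turned positive were LAMC3 0.70, which was uncalled under both scalings, and among the lower calls LAMA3 0.07, LAMA1 0.29, LAMA5 0.14, LAMB3 0.12, ITGB8 0.12, ITGB6 0.03, ITGB4 0.02, ITGB3BP 0.50 and ITGA9 0.21. Between both agents and methotrexate the 10 higher became 0, with LAMA1 at -0.12, LAMA5 at -0.10, LAMB3 at -0.14, ITGB8 at -0.06, ITGB3BP at -0.29 and ITGA9 at -0.17. In the interaction the 9 higher became 0 and 11821 genes were called in place of 7808, with LAMA3 at 0, LAMA1 at -0.22, LAMB3 at -0.16, ITGB4 at -0.02, ITGB3BP at -0.01 and ITGA9 at -0.15. That scaling moves every log2 change by about the epithelial median by its construction.

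Under the submitters' stricter threshold methotrexate against control kept 4525 of 16733 genes, 918 of them lower, and 0 lower integrin or laminin genes. Both agents against methotrexate kept 4400 genes, 903 of them higher, and 2 higher integrin or laminin genes. For these comparisons the integrin and laminin genes kept in the other direction are not given. The interaction kept 3296 genes, 714 higher and 2582 lower, with 3 higher and 10 lower integrin or laminin genes. Both agents against control kept 2 genes. Comparisons without the methotrexate group called few genes at most: for lactoferrin against control DESeq2 called 1 and the fit without a filter 17. For both agents against control (5) DESeq2 called 15, limma-voom 0, no filter 38 with 1 integrin gene higher (ITGA4), the compared groups alone 0 and the fit without methotrexate libraries 0. For both agents against lactoferrin (3) these were 7, 0, 19, 0 and 0. The cause of these shifts was not tested.

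As each library was left out, both agents against control ranged from 0 to 8 genes and both agents against lactoferrin from 0 to 5. With methotrexate against control 20 to 22 of the integrin and laminin genes were higher and 10 lower each time. Uncalled changes that crossed 0 were LAMB1 (-0.01 to 0.03) and ITGA2B (-0.19 to 0.31) with methotrexate and ITGB7 (-0.06 to 1.33) between both agents and lactoferrin. The replicate number did not pair the samples: same-numbered samples correlated at -0.216 to 0.118, against -0.155 to 0.289 for others. With it as a replicate block both agents against control had 3 genes in place of 5, methotrexate against control still had 21 higher and 10 lower, and ITGA10 lost its interaction call (-3.09, adjusted p = 0.057). Depth limits the chains under about 1 CPM.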
